A study of Mus musculus with 6 samples.

Results

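Glycolysis splits glucose into pyruvate in the cytosol and yields ATP without oxygen, and lactate dehydrogenase turns the pyruvate into lactate so that the pathway can keep running. Macrophages activated by microbial products are known to take up more glucose and to lean on this pathway, and many of its genes are known targets of the hypoxia-inducible factor HIF-1, whose subunit HIF-1α is made in larger amounts in such cells. The genes described here are 10 named steps of the route: the glucose transporter Slc2a1, the kinases Hk2 and Pfkp, the aldolase Aldoa, the payoff enzymes Gapdh, Pgk1, Pgam1, Eno1 and Pkm, and the dehydrogenase Ldha. They were chosen by name and function, with earlier results of these data known. All 10 were among the 32287 features of the deposited count matrix, and all 10 passed the filter on low counts that left 11284 genes for testing.

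The cells were CD11b+TOM+ cells sorted from inguinal lymph nodes of Cd169Cre mice with a tdTomato reporter (CD169Tom mice), on a C57BL/6J background. In these mice Cre is driven from the Cd169 (Siglec1) locus, so that TOM marks cells in which this gene was once active or whose progenitors expressed it, and not only cells making CD169 at harvest. Unimmunized mice (n = 2) were compared with mice immunized with hen egg lysozyme and killed on day 9 (n = 2). The labels name hen egg lysozyme alone; the study's methods describe a conjugate of it with an ovalbumin peptide in Sigma Adjuvant System for mice given transferred lymphocytes, and do not say what these mice received. The methods give a minimum age for all mice of the study but not the ages of these 4. Each mouse carried 1 hashtag antibody, all 4 mice were pooled, and the pool was run in 2 10X captures, so that the mice shared every capture. CITE-seq then gave unique molecular identifier (UMI) counts of 3′ mRNA ends in single cells together with antibody counts.

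After removal of barcode sequences seen in both captures, of cells with over 25% mitochondrial UMIs and of cells without a clear hashtag, 12139 cells remained, with 2828, 537, 4052 and 4722 cells from unimmunized mouse 1, unimmunized mouse 2, immunized mouse 1 and immunized mouse 2. Their median UMIs per cell were 5877, 6280, 9674 and 12728, respectively. Cells were gated into 14 classes by UMIs of marker genes, none of which was a glycolysis gene, while 4408 cells (36.3%) met no gate. Cells gated as B, αβ T, γδ T or NK cells were present despite the CD11b gate and made up 2.45%, 8.99%, 1.88% and 2.47% of the cells. Counts were summed per mouse and class into 50 libraries of 10 to 1316 cells and 29656 to 19586920 UMIs, and a level below is given as CPM, the UMI count of a gene scaled by the total UMIs of its library. CPM values are shares of the RNA of a class, so they do not give RNA per cell, and levels are compared between classes or mice and not between genes.

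The inflammatory macrophage-like class was gated on Nos2, Acod1, Arg1, Inhba, Slc7a2, Ptgs2 and Il1a. Most of its 401 cells came from a single animal. Immunized mouse 2 gave 384 of them, or 95.8%, while immunized mouse 1 gave 14, unimmunized mouse 1 gave 3, and unimmunized mouse 2 gave 0 of 537 cells, which allows a share of up to 0.559%. It follows that no unimmunized library of this class existed and that its response to immunization could not be tested. Both immunized libraries held Nos2, the inducible nitric oxide synthase, at 32.6 and 203 CPM in mice 1 and 2, and Acod1, which makes itaconate, at 320 and 424 CPM. Neither C1q macrophage-like nor classical monocyte-like cells reached 1 CPM of Nos2 in the immunized mice. Nos2 and Acod1 are markers of this gate, and cells that met it were taken out of those classes. The contrast in these markers was thus set by the gating. Arg1 had 0 UMIs in the library of mouse 1 and 134 UMIs in that of mouse 2. Other lists also had UMIs in these libraries. Neutrophil markers summed to 81.5 and 81.2 CPM (4 and 5 of 7 markers detected), interferon-response markers to 3199 and 1005 CPM, classical monocyte markers to 1543 and 892 CPM, and C1q macrophage markers to 1233 and 2591 CPM in mice 1 and 2. Nonclassical monocyte markers summed to 261 and 107 CPM and migratory dendritic cell markers to 223 and 84.7 CPM. The markers of the inflammatory class itself summed to 489 and 1171 CPM. The part of these markers in the results below was not tested.

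Promoter sequence is shown for 4 of the genes, those with the largest fitted differences between inflammatory and C1q macrophage-like cells, because the hypoxia list described further on moved in the same comparison. Each run covers 250 bases before and 50 bases after a RefSeq transcript start (GRCm38.p6, which is mm10) on the strand of the gene. Capitals mark ACGTG, the core bound by HIF-1, or the related GCGTG, read on either strand, so that CACGT and CACGC on the printed strand are also in capitals. The palindrome CACGTG counts as a match on both strands.
Slc2a1, chr4:119108495-119108794, plus strand: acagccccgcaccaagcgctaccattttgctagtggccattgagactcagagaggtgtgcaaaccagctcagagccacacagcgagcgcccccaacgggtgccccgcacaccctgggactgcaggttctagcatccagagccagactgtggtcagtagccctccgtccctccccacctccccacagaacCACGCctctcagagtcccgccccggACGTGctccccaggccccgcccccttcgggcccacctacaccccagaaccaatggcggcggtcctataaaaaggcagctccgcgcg
Ldha, chr7:46845554-46845853, plus strand: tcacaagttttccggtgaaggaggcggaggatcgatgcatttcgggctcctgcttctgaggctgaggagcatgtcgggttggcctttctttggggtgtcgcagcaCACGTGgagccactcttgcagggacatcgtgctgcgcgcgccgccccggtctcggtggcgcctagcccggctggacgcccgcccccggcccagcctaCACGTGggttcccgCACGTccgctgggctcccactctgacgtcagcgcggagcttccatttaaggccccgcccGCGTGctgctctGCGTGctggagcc
Pfkp, chr13:6648722-6649021, minus strand: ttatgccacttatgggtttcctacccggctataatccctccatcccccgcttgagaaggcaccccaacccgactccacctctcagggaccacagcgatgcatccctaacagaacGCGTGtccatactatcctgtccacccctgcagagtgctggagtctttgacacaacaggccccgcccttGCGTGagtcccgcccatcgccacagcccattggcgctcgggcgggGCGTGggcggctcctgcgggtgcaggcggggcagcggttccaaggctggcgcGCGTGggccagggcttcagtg
Pgk1, chrX:106186850-106187149, plus strand: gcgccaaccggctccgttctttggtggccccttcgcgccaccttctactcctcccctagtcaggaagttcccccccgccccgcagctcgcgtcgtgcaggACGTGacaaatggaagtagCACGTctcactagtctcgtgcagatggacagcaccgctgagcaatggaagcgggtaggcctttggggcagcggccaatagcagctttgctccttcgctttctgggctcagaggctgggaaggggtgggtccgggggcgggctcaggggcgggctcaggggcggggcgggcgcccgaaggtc

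In these windows Slc2a1 and Pgk1 had 2 matches each, Pfkp had 4, and Ldha had 7. Another RefSeq promoter of Ldha (chr7:46846832-46847131), which is not printed, had 2. A match to 1 of these 5-base words was found in 14 of the 16 RefSeq promoters of the 10 genes (87.5%) and in at least 1 promoter of every one of them. Among all 32851 promoters of the same length, 43.8% held a match, as did 46.7% of 27025 genes. The background takes in genes that were not tested here and is not matched for base composition, whose part in the difference was not tested. Overlapping windows of Eno1 and of Aldoa count separately among the 16. These are matches of letters, and binding was not measured.

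All 10 genes were at their highest level of any gated class in the inflammatory macrophage-like cells of immunized mouse 2. Against the median of the 11 other classes of that mouse, the 10 genes were 2.59-fold (Eno1) to 7.21-fold (Slc2a1) higher. Among all genes tested, 5.26% had their highest level in this class in this mouse. In immunized mouse 1, with its 14 cells, 5 of 10 genes (Slc2a1, Aldoa, Pgam1, Eno1 and Ldha) were highest there among 14 classes, against 7.84% of all genes, while Hk2, Gapdh, Pgk1 and Pkm came second to neutrophil-like cells (16 cells) and Pfkp was passed by 5 classes. Summed over the 10 genes, the inflammatory class reached 4003 CPM in mouse 1 and 12264 CPM in mouse 2, and the other classes spanned 1415 to 3906 CPM and 1868 to 5514 CPM. The 2 captures of mouse 2, with 196 and 188 inflammatory cells, gave 12390 and 12119 CPM, and no gene differed between them by more than 1.19-fold. Thinning every cell to 3000 UMIs left 4262 and 12041 CPM in mice 1 and 2. The level of mouse 1 did depend on which cells were counted: it was 6074 CPM over the 32 cells of its Leiden clusters and 6201 CPM over 29 cells with HTODemux calls, beside 11468 CPM (789 cells) and 12519 CPM (214 cells) in mouse 2. The 29 cells include some without a clear hashtag by the rule used above, and whether any came from another mouse was not tested.

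**Figure D1:**
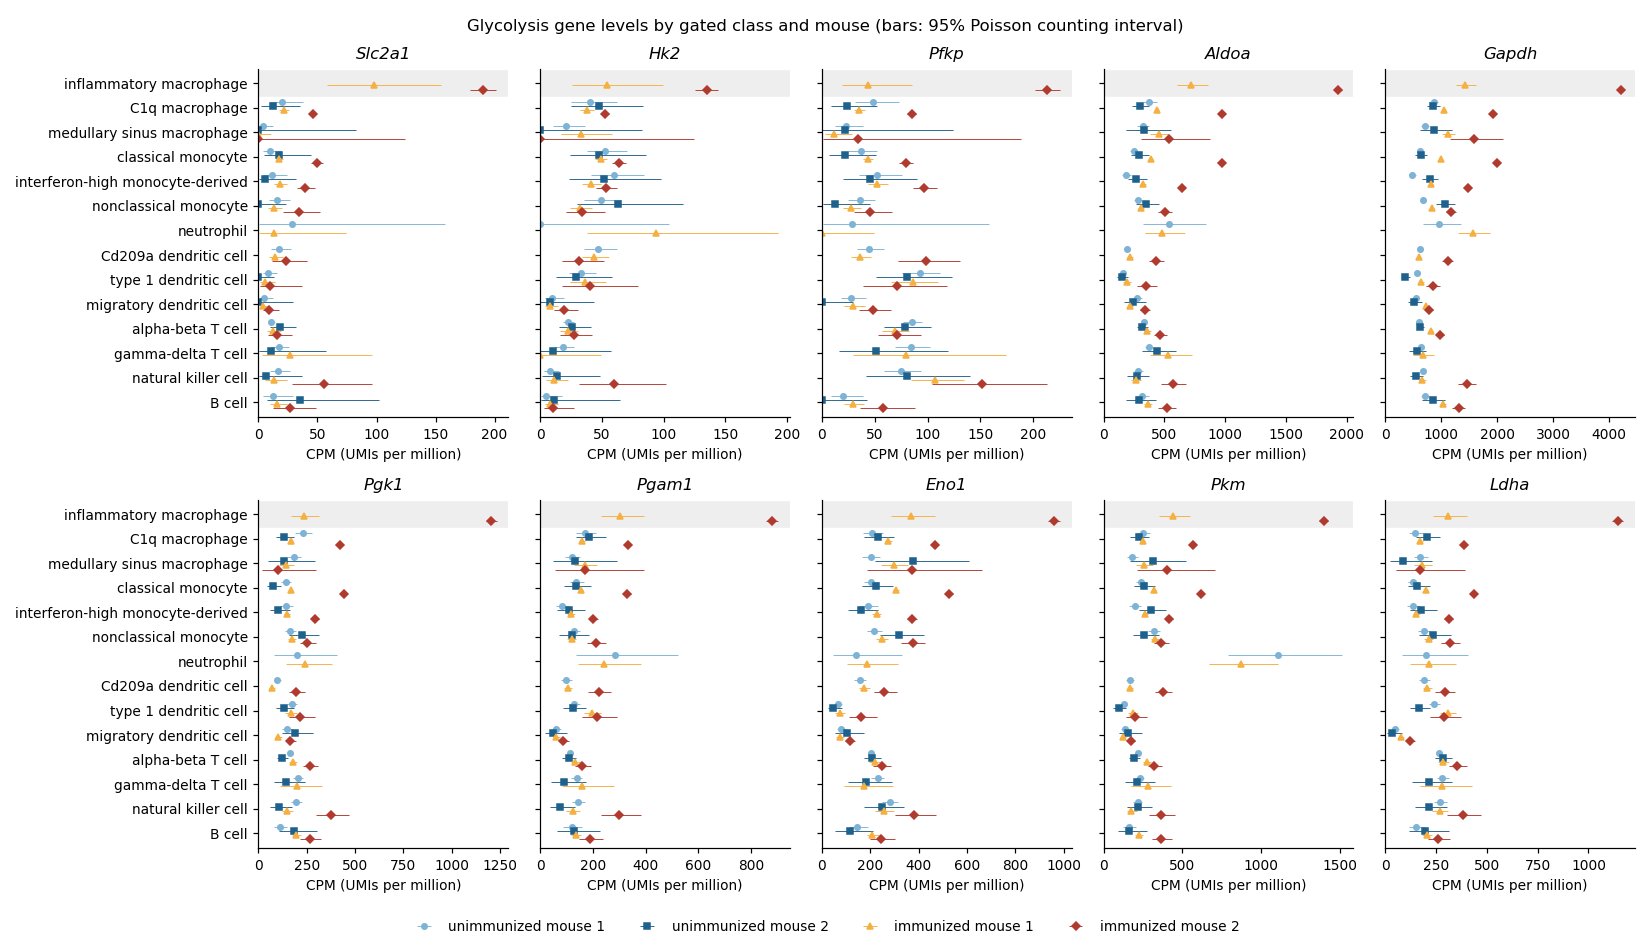
Level of each glycolysis gene (CPM, linear axis starting at 0) in the gated classes, with 1 symbol per mouse and bars for the 95% Poisson counting interval of that library; the shaded row is the inflammatory macrophage-like class. The symbols of immunized mouse 2 lie farthest right in that row in all 10 panels, while those of immunized mouse 1 lie far closer to the other classes, Slc2a1 (97.8 CPM) excepted.

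The glucose transporter Slc2a1 (GLUT1; ENSMUSG00000028645, mm10 chr4:119108711-119137983) brings glucose into the cell. Inflammatory cells held it at 97.8 CPM in immunized mouse 1 (18 UMIs, 95% Poisson interval 57.9 to 155) and at 190 CPM in immunized mouse 2 (1160 UMIs, 180 to 202). In C1q macrophage-like cells of the same mice it was at 21.3 and 46.0 CPM, and in classical monocyte-like cells at 17.5 and 49.5 CPM. Both inflammatory libraries thus lay above every other library in the data, the next being NK cells of mouse 2 at 55.2 CPM. Within a mouse the ratio to C1q cells was 4.59 and 4.14. With the quasi-likelihood test of edgeR, p-values adjusted by Benjamini-Hochberg over all genes tested, the difference from C1q macrophages was 2.25 on the log2 scale (SE 0.39, adjusted p = 0.000249) and that from classical monocytes was 2.32 (SE 0.40, adjusted p = 8.52e-05). Without immunized mouse 2 the values were 2.12 and 2.46 (adjusted p = 0.0204 and 0.00214 by edgeR), from 1 library of 14 cells that is assumed to vary like the other groups.

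Hk2 and Pfkp code for the enzymes that commit glucose to the pathway by phosphorylating it and then its fructose derivative. Hk2 (ENSMUSG00000000628, chr6:82725025-82774454) was at 54.3 and 135 CPM in the inflammatory class of mice 1 and 2, at 37.9 and 52.3 CPM in C1q macrophages, and at 49.4 and 63.7 CPM in classical monocytes. In mouse 1, then, its inflammatory and classical monocyte levels differed by less than their counting error (10 UMIs, interval 26.0 to 99.9 CPM), and the difference came from mouse 2. The fitted values were 1.35 (SE 0.28, adjusted p = 0.00179) against C1q cells and 1.06 (SE 0.28, adjusted p = 0.0107) against classical monocytes. Pfkp (ENSMUSG00000021196, chr13:6579768-6648777) followed, with 43.5 and 213 CPM in the inflammatory class against 35.3 and 85.0 CPM in C1q macrophages and 43.3 and 79.5 CPM in classical monocytes. Its ratio to classical monocytes was 1.00 in mouse 1 and 2.68 in mouse 2. Pfkp passed the test in both comparisons (1.44, SE 0.38, adjusted p = 0.0152, and 1.46, SE 0.38, adjusted p = 0.0095), but without mouse 2 its difference from classical monocytes was -0.02.

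Aldoa, which splits the 6-carbon sugar, and Gapdh, which carries out the first oxidation, were the members with the highest counts. Aldoa (ENSMUSG00000030695, chr7:126795234-126800751) stood at 722 and 1928 CPM in inflammatory cells, 439 and 973 CPM in C1q macrophages and 390 and 973 CPM in classical monocytes. Gapdh (ENSMUSG00000057666, chr6:125161715-125166467) stood at 1429 and 4213 CPM, against 1048 and 1930 CPM, and 994 and 1995 CPM. In each mouse the inflammatory library was the highest of the 3 for both genes. Neither gene passed the test against C1q macrophages, with differences of 0.97 for Aldoa (SE 0.39, adjusted p = 0.179) and 0.96 for Gapdh (SE 0.37, adjusted p = 0.145). Between the animals, the log2 ratio of mouse 2 to mouse 1 (of CPM + 5) was 1.14 for Aldoa and 0.88 for Gapdh in C1q macrophages alone.

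Pgk1 and Pkm make the ATP of the pathway, and Pgam1 and Eno1 run the 2 steps between them. Pgk1 (ENSMUSG00000062070, chrX:106187100-106203699) had the largest ratio between the immunized mice in the inflammatory class, 234 against 1205 CPM, with 169 and 424 CPM in C1q macrophages. Its difference from C1q cells (1.41, SE 0.47, adjusted p = 0.0784) did not pass. Pgam1 (ENSMUSG00000011752, chr19:41911923-41918660) was at 304 and 880 CPM in inflammatory cells and at 157 and 335 CPM in C1q macrophages, and passed with 1.37 (SE 0.37, adjusted p = 0.0195). Eno1 (ENSMUSG00000063524, chr4:150236721-150248879) did not pass, at 369 and 961 CPM against 275 and 470 CPM (0.92, SE 0.32, adjusted p = 0.087). Pkm (ENSMUSG00000032294, chr9:59656368-59679375) was at 440 and 1395 CPM against 248 and 566 CPM, and passed against C1q macrophages (1.26, SE 0.36, adjusted p = 0.0317) but not against classical monocytes (1.07, SE 0.36, adjusted p = 0.0601). Reads of Eno1 can be shared with Eno1b, a second feature that had 333 UMIs, or 1.11% of those of Eno1.

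Ldha (ENSMUSG00000063229, chr7:46841475-46855627), which makes lactate, was at 310 CPM in the inflammatory cells of mouse 1 and at 1144 CPM in those of mouse 2. C1q macrophages had 172 and 385 CPM and classical monocytes 198 and 435 CPM. As with Pgk1, most of the separation lay in mouse 2, where the ratio to C1q cells was 2.97 against 1.80 in mouse 1. The fitted differences were 1.49 from C1q macrophages (SE 0.38, adjusted p = 0.0132) and 1.33 from classical monocytes (SE 0.38, adjusted p = 0.0213).

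In counts, 6 of the 10 genes rose in inflammatory against C1q macrophage-like cells, where 3.04% of all genes tested were called higher and 2.09% lower, and 5 of 10 (Slc2a1, Hk2, Pfkp, Pgam1 and Ldha) rose against classical monocyte-like cells, where 4.87% were called higher and 3.2% lower. The median difference of the 10 genes was 1.36 and 1.20, beside -0.05 and -0.01 over all genes tested. With the mouse as a block, which sets each class against the other classes of its own animal, all 10 passed in both comparisons (4.69% and 6.6% of all genes called higher). DESeq2 called 0 of 10 in each, and 0.523% and 1.75% of all genes. At an unadjusted p under 0.05 it had 10 and 9 of the 10, and 707 and 939 of all 11284 genes. Without unimmunized mouse 1, 2 and 1 of 10 passed, where 4.0% and 7.25% of all genes were called in either direction. Without unimmunized mouse 2 the counts were again 2 and 1 (3.44% and 6.56%). The ratio of CPM to C1q macrophages ran from 1.23 (Pfkp) to 4.59 (Slc2a1) in immunized mouse 1 and from 1.98 (Aldoa) to 4.14 (Slc2a1) in immunized mouse 2. To classical monocytes it ran from 1.00 (Pfkp) to 5.60 (Slc2a1) and from 1.82 (Eno1) to 3.84 (Slc2a1). Without immunized mouse 2, fewer of the 10 passed and fewer genes of any kind were called. With an immunized mouse left out, each class is 1 library and its spread is assumed to be that of the other groups. These p-values rest on 2 animals, 1 of which had only 14 cells in the class.

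Against the mean of the 9 other macrophage, monocyte, neutrophil and dendritic cell classes, each weighted alike, all 10 genes passed, as did 9.19% of all genes in the same direction (1.2% were lower). This mean holds small libraries in which a gene had no UMI. Slc2a1 was at 0 UMIs in medullary sinus macrophage-like cells of both immunized mice (118 and 13 cells), Hk2 in those of mouse 2, and Pfkp in neutrophils of mouse 1. The median over all genes was shifted as well, to 0.35. Leaving these 2 classes out of the mean, an alternative chosen after the data were seen, brought that median to -0.02 and left all 10 genes past the threshold, where 8.1% of all genes were called higher. The differences then ran from 1.48 for Gapdh (SE 0.24, adjusted p = 1.66e-05) to 1.95 for Pgk1 (SE 0.31, adjusted p = 8.4e-06) for 9 of the genes, and Slc2a1 stood apart at 3.23 (SE 0.29, adjusted p = 9.55e-11). When all other myeloid cells of a mouse were summed into 1 library, 5 of 10 passed, where 5.49% of all genes were called in either direction. Without immunized mouse 2, where each class is 1 library, fewer of the 10 passed and fewer genes of any kind were called.

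**Figure D2:**
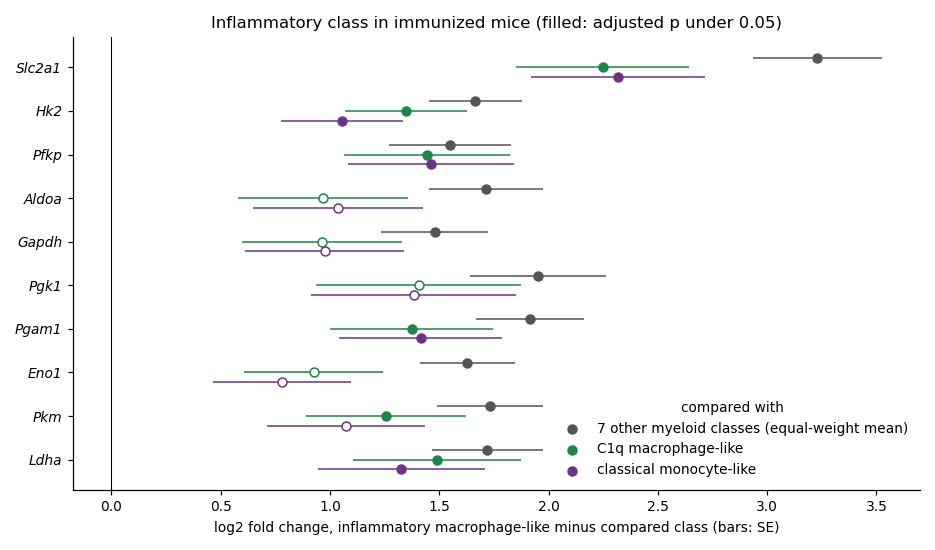
Fitted log2 difference of each gene between inflammatory macrophage-like cells and 3 comparison groups in the immunized mice, with bars of 1 SE and filled symbols for an adjusted p under 0.05 (edgeR); the grey symbols set the class against the mean of the other myeloid classes without medullary sinus macrophages and neutrophils. All symbols lie right of 0, and Slc2a1 lies farthest right in each comparison, at 3.23, 2.25 and 2.32.

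Genes around the core pathway were described with lists of related genes. Of 18 tested genes for other glycolytic isoforms, transporters and regulators, 5 rose against C1q macrophages and 0 fell, with a list median of 0.83. Of all genes, 3.04% were called higher and 2.09% lower there. The lactate exporter Slc16a3 went from 21.5 and 64.2 CPM in C1q macrophages of mice 1 and 2 to 86.9 and 279 CPM in inflammatory cells (2.31, SE 0.47, adjusted p = 0.00138). Pfkl, the liver-type phosphofructokinase, went from 28.7 and 68.9 to 59.7 and 185 CPM (1.60, SE 0.37, adjusted p = 0.00583). Both immunized inflammatory libraries therefore exceeded their own C1q library for these genes. Tpi1, the triosephosphate isomerase, did not pass (1.40, adjusted p = 0.0824) although it was at 201 and 1059 CPM against 142 and 386 CPM, and neither did Aldoc (adjusted p = 0.136) or Ldhb (adjusted p = 0.586). Against the other myeloid classes 10 genes of this list rose and 2 fell, where 9.19% of all genes were called higher and 1.2% lower. Those 2 were Pfkfb4, a regulator of fructose 2,6-bisphosphate, at 5.43 and 9.02 CPM in inflammatory cells and 34.6 and 25.9 CPM in classical monocytes, and Adpgk, an ADP-dependent glucokinase, at 5.43 and 5.91 CPM against 6.28 and 8.02 CPM. For each gene the 5.43 CPM of mouse 1 is 1 UMI. With medullary sinus macrophages and neutrophils left out of the mean, Pfkfb4 stayed lower (-1.04, adjusted p = 0.0408), Adpgk did not pass (-0.67, adjusted p = 0.253), and the enolase gene Eno3 was called lower (-1.78, adjusted p = 0.0174) although it was at 54.3 and 7.71 CPM in inflammatory cells and 11.3 and 11.0 CPM in C1q macrophages. Nonclassical monocytes, a class of that mean, had Eno3 among their 10 genes highest by fold over the other classes. Slc2a3, the neuronal-type glucose transporter, was at 0 and 0.49 CPM in the inflammatory class.

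Of the hypoxia-response genes, 14 of 19 rose against C1q macrophages and 14 of 19 against classical monocytes, none fell in either, and the list medians were 1.72 and 1.55. Among all genes, 3.04% and 4.87% were called higher in these comparisons. Vegfa, the vascular growth factor, was at 103 CPM in inflammatory cells of mouse 2, with 11.6 CPM in C1q macrophages and 3.66 CPM in classical monocytes. In mouse 1 it was at 5.43 CPM, which is 1 UMI, against 1.49 and 0.50 CPM. Ero1l, an oxidoreductase of the endoplasmic reticulum, was at 32.6 and 286 CPM against 16.8 and 44.5 CPM in C1q macrophages (2.71, SE 0.44, adjusted p = 9.53e-05), and P4ha1, a collagen prolyl hydroxylase, was at 27.2 and 104 CPM against 23.4 and 45.5 CPM (1.31, SE 0.35, adjusted p = 0.0188). Egln3 and P4ha2, both prolyl hydroxylases, had 0 UMIs in the 14 inflammatory cells of mouse 1 and were at 57.6 and 12.8 CPM in those of mouse 2. For this list the high values were thus largely those of mouse 2. Hif1a itself, at 228 and 494 CPM in inflammatory cells and 113 and 273 CPM in C1q macrophages, did not pass (1.02, SE 0.39, adjusted p = 0.15).

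Lists for routes that branch off glycolysis were counted in the same way. Against C1q macrophages, 3.04% of all genes were called higher and 2.09% lower. Among 9 glycogen genes, 4 rose against C1q macrophages: Gys1 (glycogen synthase, 16.3 and 55.0 CPM against 2.98 and 13.7 CPM), Pgm1, Gbe1 and Pygl. Of these Gys1 was higher in the inflammatory library of both mice, though from very few UMIs in mouse 1, whereas Pgm1 and Gbe1 were higher in mouse 2 alone. Against the other myeloid classes Ugp2 of this list passed as well. So did 2 of 17 genes of the citric acid cycle, Sdhd among them, 1 of 8 of the pentose phosphate route (Pgd) and 1 of 10 of pyruvate entry (Mpc1). For these last lists the counts are close to the 9.19% of all genes called higher there. Their medians were 0.35, 0.06 and 0.32, beside 0.35 for all genes. None of 10 genes of pyruvate entry to mitochondria passed against C1q macrophages, and none of 8 pentose phosphate genes did, with list medians of -0.05 and 0.07. Of 17 genes of the citric acid cycle, 0 rose and 1 fell, the fumarate hydratase Fh1 (-0.94, SE 0.24, adjusted p = 0.0114). Fh1 also fell against classical monocytes (-0.83, adjusted p = 0.0213), as did Idh3g (-0.77, adjusted p = 0.0287), where 3.2% of all genes were called lower. Shmt1, of the serine branch, was called lower than in C1q macrophages from very few UMIs, with 0 and 0.16 CPM in inflammatory cells against 5.11 and 1.84 CPM, and the other 4 genes of that list and the 1 tested gluconeogenesis gene did not pass.

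**Figure D3:**
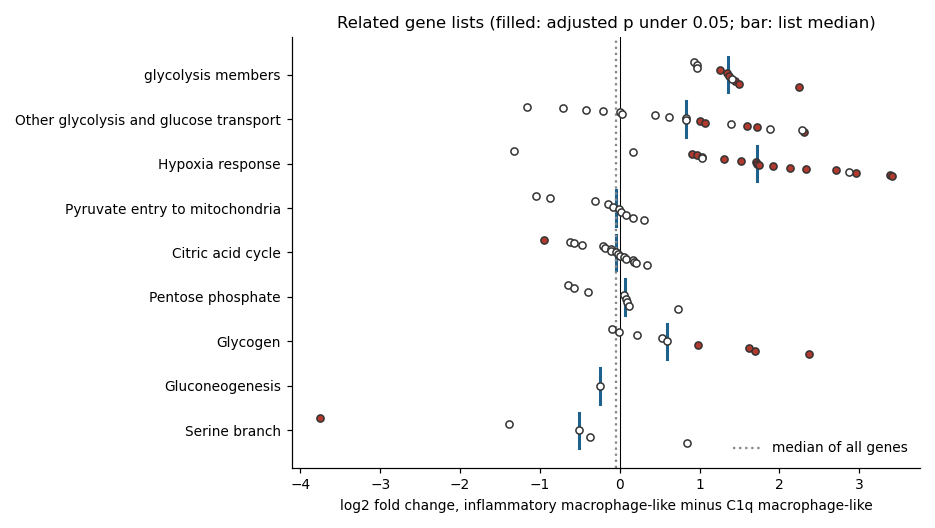
Fitted log2 differences between inflammatory and C1q macrophage-like cells for the 10 glycolysis genes and 8 lists of related genes, 1 point per gene (filled for an adjusted p under 0.05), with a blue bar at each list median and a dotted line at the median of all genes. The hypoxia list (median 1.72) and the glycolysis genes (median 1.36) lie right of the dotted line, and the citric acid cycle list (median -0.04) lies on it.

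Across the remaining classes the order of the summed glycolysis level was not the same in all mice. Migratory dendritic cell-like cells had the lowest sum in 3 of the 4 mice, at 1342, 1415 and 1868 CPM in unimmunized mouse 1, immunized mouse 1 and immunized mouse 2, and type 1 dendritic cell-like cells had the lowest in unimmunized mouse 2 (1189 CPM). Neutrophil-like cells had the highest sum in unimmunized mouse 1 (3489 CPM, 10 cells) and the second highest in immunized mouse 1 (3906 CPM, 16 cells), with Pkm at 1106 and 870 CPM, above every other class of those animals. C1q macrophages exceeded classical monocytes in the unimmunized mice (2350 against 1832 and 2205 against 1853 CPM) and lay just below them in the immunized mice (2602 against 2642 and 5266 against 5514 CPM), a pair whose order is not set apart from the spread between animals. Pfkp had an order of its own, with NK cells at 75.1, 80.1, 107 and 152 CPM and type 1 dendritic cells at 92.5, 81.0, 85.9 and 70.8 CPM in unimmunized mice 1 and 2 and immunized mice 1 and 2. NK cells were thus the highest class of immunized mouse 1, and in immunized mouse 2 the highest after the inflammatory class. Type 1 dendritic cells of immunized mouse 2 lay just below the median of its classes other than the inflammatory one (71.4 CPM). Hk2, in contrast, was low in B cells (4.96, 11.6, 7.85 and 10.6 CPM) and at 40.6, 47.8, 37.9 and 52.3 CPM in C1q macrophages.

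**Figure D4:**
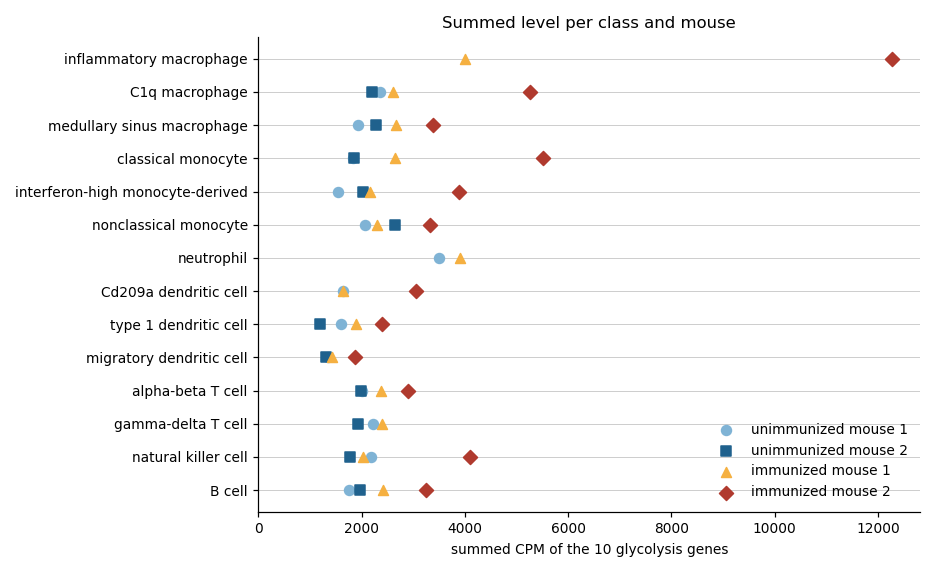
Summed level of the 10 glycolysis genes (CPM) in each gated class, with 1 symbol per mouse; a class without a symbol for a mouse had under 10 cells there. Immunized mouse 2 lies right of every other mouse in all 12 classes it has, from 1868 CPM in migratory dendritic cells to 12264 CPM in inflammatory macrophages.

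The study's other comparison, immunization, asked whether the same genes differed between immunized and unimmunized mice within a class. In classical monocyte-like cells Gapdh was at 623 and 629 CPM in the unimmunized and at 994 and 1995 CPM in the immunized mice. Aldoa was at 251 and 293 against 390 and 973 CPM, and Ldha at 137 and 157 against 198 and 435 CPM. For these genes the groups did not overlap, yet the 2 immunized animals were farther from each other than immunized mouse 1 was from the unimmunized pair. Over the 10 classes with libraries in all 4 mice, the mean difference of each class passed the test for 7 of 10 genes, where 5.65% of all genes were called higher and 2.69% lower: Gapdh 0.78 (SE 0.12, adjusted p = 3.65e-05), Aldoa 0.75, Ldha 0.66, Pgam1 0.63, Pkm 0.62, Eno1 0.60 and Pgk1 0.55 (SE 0.18, adjusted p = 0.0442). Hk2 (0.36, SE 0.18, adjusted p = 0.256) and Pfkp (0.46, SE 0.23, adjusted p = 0.24) did not pass, and Slc2a1, which had 0 UMIs in several of these libraries, could not be estimated (SE 1.83). Without medullary sinus macrophages its difference was 0.77 (SE 0.30, adjusted p = 0.118). This fit counts the 10 classes of an animal as separate samples. With all cells of a mouse summed into 1 library, edgeR called 0 of 10 genes and 0 of 13596 genes in all. At an unadjusted p under 0.05 were 7 of the 10, and 3894 of the 13596 genes. Unlike the mean over classes, such a sum also holds ungated and inflammatory cells, so the mix of classes of each mouse enters it. With 1 mouse left out, each class of its condition is 1 library, whose spread is assumed to be that of the other groups. Fewer of the 10 then passed without immunized mouse 2, unimmunized mouse 1 or unimmunized mouse 2. Whichever mouse was left out, fewer genes of any kind were called. Over all settings the difference ran from 0.45 to 1.36 for Gapdh, from 0.12 to 1.34 for Pgk1 and from -0.55 to 1.05 for Hk2. The median of all genes moved between settings too. It was 0.79 without unimmunized mouse 1 and -0.51 without immunized mouse 1, beside -0.001 with all mice, so these ranges include shifts of the whole fit.

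Within single classes, edgeR called 0 of 100 pairs of gene and class, and DESeq2 called 0 as well. At an unadjusted p under 0.05 by edgeR were 21 of the 100 pairs, and 7826 of 112840 pairs over all genes. Few genes of any kind were called within a class. In αβ T cells 0.372% of all genes were higher and 0.115% lower, in classical monocytes 0.0266% and 0.479%, in C1q macrophages 0.0177% and 0.257%, in B cells 0.0177% and 0.0443%, and in migratory dendritic cells 0.0975% and 0.0532%. Type 1 dendritic cells had 0.0443% higher, interferon-high cells 0.00886% higher and medullary sinus macrophages 0.0177% lower, and 0% passed in NK cells and nonclassical monocytes. The 21 pairs included 8 in classical monocytes and 4 in C1q macrophages, where 909 and 792 of all 11284 genes were under that limit. Counted without a test, both immunized libraries lay above both unimmunized ones for 8 of 10 genes in classical monocytes (20.5% of all genes) and 8 in B cells (14%), 7 in αβ T cells (13.7%), type 1 dendritic cells (15.7%) and interferon-high monocyte-derived cells (21%), and 5 in C1q macrophages (20.1%). For NK cells and nonclassical monocytes it was 1 gene each (12.3% and 15%), for medullary sinus macrophages 3 (8%) and for migratory dendritic cells 4 (20.3%). Both immunized libraries lay below both unimmunized ones for Pfkp in αβ T cells (33.1% of all genes) and for Hk2 in nonclassical monocytes (21.1%). The change in C1q macrophages was not shown to differ from that in classical monocytes: all 10 estimates of the difference were negative, from -0.69 (Pgk1, SE 0.74) to -0.04 (Hk2, SE 0.52), and edgeR and DESeq2 each called 0 of 10, with 0 at an unadjusted p under 0.05 and 0% of all genes called.

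The immunized group itself was split. In immunized mouse 2 the genes were higher than in immunized mouse 1 in 10 to 12 of the 12 classes that both had, and 4 of them (Aldoa, Gapdh, Eno1 and Pkm) were higher in all 12, as were 0.239% of all genes. The median ratio of CPM + 5 over classes and genes was 1.66, while that of all genes was 0.999. B cells, αβ T cells and NK cells took part, with summed ratios of 1.35, 1.23 and 2.02 beside 2.02 in C1q macrophages, 2.09 in classical monocytes and 3.06 in the inflammatory class. That last ratio rests on 14 cells of mouse 1 (4003 CPM). With Leiden clusters the inflammatory sums were 6074 and 11468 CPM in mice 1 and 2, and with HTODemux 6201 and 12519 CPM. The 2 mice lay closer together in both. By the median ratio of CPM + 5, immunized mouse 1 was 1.14-fold above unimmunized mouse 1 (all genes 0.956), immunized mouse 2 was 1.74-fold above it (all genes 0.940), and unimmunized mouse 2 stood at 0.967 of it (all genes 0.944). None of the genes was higher in every class for unimmunized mouse 2 over unimmunized mouse 1 (0.0266% of all genes) or for immunized mouse 1 over it (0.993%), and 5 were for immunized mouse 2 over it (1.34%). Comparing 2 animals has no replicate, so these are descriptions of these mice. Hashtag calling also set immunized mouse 2 apart: HTODemux left 2612 of its 4722 cells without a call.

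**Figure D5:**
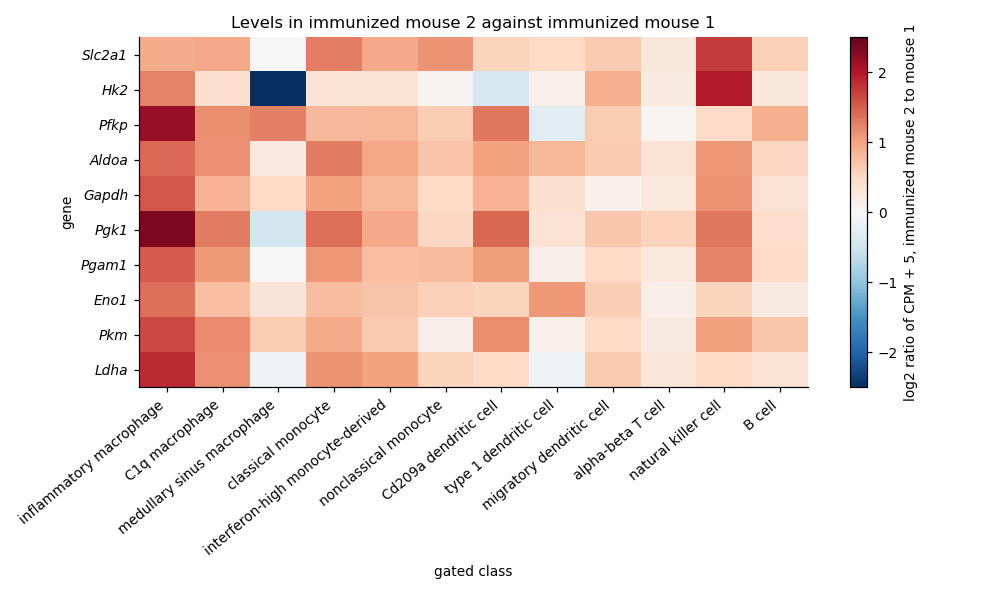
Log2 ratio of CPM + 5 between immunized mouse 2 and immunized mouse 1 for each gene (rows) and gated class (columns), red where mouse 2 was higher. Most fields are red, with the highest ratios in the inflammatory class (Pgk1 2.34, Pfkp 2.17), where mouse 1 had 14 cells and 8 UMIs of Pfkp. The dark blue field of Hk2 in medullary sinus macrophages (-2.94) comes from a library of 13 cells with 0 UMIs.

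Over the 26 libraries of the immunized mice the 10 genes followed each other to different degrees. Spearman's rho of a gene with the summed level of the other 9 was 0.91 for Aldoa and for Pkm, 0.87 for Gapdh and 0.86 for Pgam1, and fell to 0.64 for Ldha, 0.54 for Hk2 and 0.24 for Pfkp. Among 5225 genes outside the lists and above a mean log2 CPM of 4, those with the most similar pattern to the summed level were Prelid1, a mitochondrial lipid carrier (rho 0.77), Morrbid, a long noncoding RNA (0.74), Alas1, the first enzyme of heme synthesis (0.74), the Fc receptor gene Fcgr3 (0.73), the ferritin gene Fth1 (0.71), Gbp7, an interferon-induced GTPase (0.71), the endotoxin co-receptor gene Cd14 (0.71) and Mif, a cytokine gene (0.69). Mif was at 695 and 2447 CPM in inflammatory cells of mice 1 and 2 against 376 and 914 CPM in C1q macrophages, and Cd14 was at 174 and 368 against 55.3 and 57.0 CPM. The 26 libraries come from 2 mice and differ widely in depth, so these correlations describe the libraries and carry no p-value.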

How the data were processed

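CITE-seq was done on pooled, hashtagged CD11b+TOM+ lymph node cells of 4 mice (2 unimmunized, 2 immunized) in 2 captures. The authors deposited UMI counts per gene and cell, made with Cell Ranger 4.0.0 on mm10, and counts of hashtags and antibodies; none of these counts is normalized. The glycolysis genes, the lists and the gates were chosen with earlier results of these data known, and gate limits were set after the matrices had been seen.

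From 18662 barcodes, 1242 cells that shared a barcode sequence between the captures were dropped, as were cells with over 25% mitochondrial UMIs. A cell was given to a mouse where 1 hashtag had at least 80% of its hashtag counts and at least 10 counts, which can also remove doublets between mice. HTODemux still called doublets among the kept cells, 90 and 132 in immunized mice 1 and 2 and 182 and 31 in unimmunized mice 1 and 2. Doublets within a mouse were treated only by Scrublet scores as an alternative. Each class required a minimum number of markers with a UMI and a minimum of marker UMIs per 10000 (2 markers and 2 UMIs, with 1 of Nos2, Slc7a2, Arg1 or Inhba among them, for inflammatory macrophages). Counts were summed per mouse and class (at least 10 cells) and tested with edgeR 4.0.16 (TMM, filterByExpr, quasi-likelihood F test, R 4.3.3), with all libraries in 1 fit and Benjamini-Hochberg adjustment over all genes at 0.05. The fit was tested on simulated data in which the libraries varied independently. Those data held no shared effect of an animal, so they do not cover libraries that come from the same mouse. Classes of 1 mouse come from the same animal, which pairs the libraries; the mouse as a block is an alternative. P-values rest on 2 mice per condition, and Poisson intervals and limits cover counting error only. DESeq2 1.42.0, Seurat 5.3.0 (HTODemux) and scanpy 1.11.5 (Leiden) served as alternatives. The named genes are the 10 glycolysis genes in every comparison, up to 5 genes per list with the largest change among those past the threshold against the other myeloid classes, any gene moving against its list, and the 8 genes most like the summed level; Hif1a, Slc2a3 and the class markers were named beyond this rule, after their values were seen. A gene that the rule names is not reported here. Gene positions come from GENCODE on GRCm38 (mm10) and promoters from RefSeq.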

Additional observations from a re-analysis of the deposited data

Results flagged for a closer look

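For 2 genes the libraries of the immunized mice lay below those of the unimmunized mice in 1 class and above them in another, without any of these changes passing the test. Hk2 was lower in both immunized libraries of nonclassical monocyte-like cells, by a mean of -22.61 CPM (32.5 and 34.2 against 49.0 and 63.0 CPM, adjusted p = 0.824 by edgeR), as were 21.1% of all genes there. In type 1 dendritic cell-like cells it was above in both immunized libraries (36.6 and 40.4 against 33.1 and 29.4 CPM). Pfkp was lower in both immunized libraries of αβ T cells, by a mean of -11.94 CPM (68.9 and 71.4 against 85.4 and 78.8 CPM, adjusted p = 1 by edgeR), as were 33.1% of all genes there, and above in both immunized libraries of B cells, NK cells, migratory dendritic cells, interferon-high monocyte-derived cells and classical monocytes. The differences between classes were not tested for either gene.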

How the results depend on the processing

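The number of the 10 glycolysis genes that passed depended on the setting in most comparisons. For inflammatory against C1q macrophage-like cells it was 6, with 0 under DESeq2. It was 10 without a filter on low counts (4.08% of all genes called), with Leiden clusters (6.6%) and with the mouse as a replicate block. Leaving out unimmunized mouse 1, unimmunized mouse 2 or immunized mouse 2 lowered it. Against classical monocyte-like cells it was 5, with 0 under DESeq2 and 8 with HTODemux (6.69% of all genes called). It was 10 with no filter (5.93%), Leiden clusters (12.3%) and the replicate block. The same 3 omissions lowered it, and leaving out 1 mouse took Pfkp from 1.49 to -0.0162 (the latter without immunized mouse 2). Against the other myeloid classes it stayed at 10 except for 5 with those cells summed and fewer without immunized mouse 2. In some settings the inflammatory library of immunized mouse 1 was too small to be kept. These were at least 20 cells per library (it had 14), the stricter gate (8), a Nos2 UMI required (5) and capture 2 only (4). The class was then the 1 library of mouse 2, as when immunized mouse 1 is left out. For immunization over classes the number was 7, with 0 in capture 1 only and with all cells of a mouse summed. It fell when unimmunized mouse 1, unimmunized mouse 2 or immunized mouse 2 was left out. There Slc2a1, which could not be estimated (SE 7307 at the upper end), ran from -0.22 to 2.75 and Hk2 from -0.55 to 1.05 with 1 mouse left out, and Hk2 was -0.0872 with Leiden clusters. The median of all genes in this comparison moved to -0.13 with DESeq2, to 0.79 without unimmunized mouse 1 and to -0.51 without immunized mouse 1. Within classes it was 0 of 100 pairs, with 13 without a filter, 1 after thinning, 2 with each class fitted alone and 0 to 29 leaving out 1 mouse, the 29 without immunized mouse 1. The share of all genes called moved as well. Against C1q macrophages it was 0.523% with DESeq2 and 7.77% with the replicate block, and against classical monocytes 1.75% and 10.7%. For immunization over classes it was 1.08% in capture 1 only. Within classes, 0.155% of all pairs of gene and class were called. The share was 0.631% without a filter, 0.143% after thinning and 0.871% with each class fitted alone. It also rose without immunized mouse 1, where each immunized class is 1 library whose spread is assumed to be that of the other groups. The cause was not tested for any of these. Depth limits the small libraries, which start at 29656 UMIs, and the inflammatory library of immunized mouse 1, with 8 UMIs of Pfkp and 10 of Hk2. Leaving out 1 immunized mouse leaves 1 inflammatory library, which is assumed to vary like the other groups.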

Other observations

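In the comparison of immunized with unimmunized mice over the 10 classes, in which 5.65% of all genes were called higher and 2.69% lower, genes of mitochondrial oxidation were among those called. Of 17 citric acid cycle genes, 6 rose and 0 fell: Sdhb (0.57, SE 0.08, adjusted p = 1.39e-05 by edgeR), Fh1 (0.50), Suclg1 (0.39), Sdhc (0.33), Mdh2 (0.28) and Sdhd (0.24). Mdh2 (adjusted p = 0.075) and Sdhd (adjusted p = 0.146) did not pass without medullary sinus macrophages and neutrophils. The list median was 0.20, beside 0.00 for all genes. Of the 10 genes of pyruvate entry, Mpc1 (0.47), a subunit of the mitochondrial pyruvate carrier, and Pdk3 (0.55), a kinase that inhibits pyruvate dehydrogenase, rose. Of the hypoxia list 2 of 19 rose, Hif1a (0.63) and Higd1a (0.38), and of the other glycolysis genes 2 of 18, Tpi1 (0.85) and Hk3 (1.04). For the last 2 lists these counts are close to the share of all genes called. As for the glycolysis genes, this fit treats the classes of a mouse as separate samples, and 0 of all genes passed with 1 library per mouse, where the mix of classes also enters.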
